A study of Ovis aries with 9 samples.

Results

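The genes described here carry out fatty acid oxidation in the liver of Tan sheep, a fat-tailed Chinese breed, and were followed across diets with 0%, 1% and 2% succinate. They were chosen by name as the enzymes and carriers of fatty acid activation, carnitine transfer and beta-oxidation in mitochondria and peroxisomes. Earlier results of these data were known when they were chosen. Of 33 genes listed, 32 had a row among the 21257 genes of the expression table, and SCP2 was not analysed here. All 32 passed the filter on low values, set at 1 FPKM or more in no fewer than 3 of the 9 libraries, and 11944 genes in all were tested. FPKM counts sequenced fragments relative to gene length and library total, so levels of different genes can be compared per length.

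Fatty acids enter oxidation as acyl-CoA thioesters made by the acyl-CoA synthetases. To cross the inner mitochondrial membrane they are carried as carnitine esters, and inside they are shortened in a repeated cycle of dehydrogenation, hydration, dehydrogenation and thiolysis. The acyl-CoA dehydrogenases of the first step hand their electrons through electron transfer flavoprotein to the ubiquinone pool, the same pool that succinate dehydrogenase reduces when it oxidises succinate. Peroxisomes shorten very long and branched chains and the side chains of bile acid precursors with their own set of enzymes, starting with oxidases that make hydrogen peroxide. In liver the products feed ketone body formation and the energy supply of gluconeogenesis, on which ruminants depend.

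The trial held 30 male sheep of 5 months in 5 stalls per diet with 2 sheep per stall, and succinate was fed for 60 days after 10 days of adaptation. Liver RNA libraries were deposited for 3 samples on the basal diet (control), 3 on the basal diet with 1% succinate and 3 on the basal diet with 2% succinate. No label says that each library is from a different animal or stall, so each p reflects library-to-library spread alone, some of which could be technical. The library called here 1% library 3 is at 1% by its treatment label and at 2% by the percentage in its title. The code in that title and the column header share the prefix of the other 1% libraries, and the 2% libraries have a different prefix. The library was kept at 1%, and results that rest most on it are also given without it. Each library held 13818648 to 18172528 reads assigned to genes, recovered from the steps between FPKM values, and the 32 genes together took 0.856% to 1.49% of them. The lowest value of any member, in ACSL3 and in ACSL4, rested on 273 reads. The summed level of 10 hepatocyte markers, such as albumin and fibrinogen, was 42571 to 65779 FPKM in controls, 63904 to 69006 at 1% and 62908 to 72976 at 2%. Of these 10, 5 had a log2 change below 0 at 1% and 2 did at 2%. The summed level of 6 skeletal muscle markers was at most 0.473 FPKM in any library. In bulk liver, fewer cells of a type and less RNA per cell cannot be told apart.

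In control liver the levels of the 32 genes spanned more than 2 orders of magnitude. ECHS1, the short-chain enoyl-CoA hydratase, was highest at 843 ± 276 FPKM (SD, n = 3), and its lowest control exceeded the highest control of the next gene. Below it came the mitochondrial thiolase ACAA2 at 432 ± 86.4, the synthetase ACSL1 at 408 ± 85.4, and the peroxisomal enzymes EHHADH at 327 ± 129 and ACAA1 at 319 ± 93.5, whose control ranges overlapped from each gene to the next. ACADVL at 281 ± 7.85 FPKM was among the steadiest genes in controls. From DECR2 down to ETFB, 16 genes had control means of 131 to 57.3 FPKM, and each overlapped its neighbours in that order. The lowest were the peroxisomal transporter ABCD3 (38.9 ± 11.2 FPKM), the oxidase ACOX3 (31.2 ± 3.10), the carnitine transporter SLC22A5 (17.7 ± 4.20), and the synthetases ACSL4 (5.24 ± 1.25) and ACSL3 (5.07 ± 0.971). The last pair did not differ beyond their spread.

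**Figure D1:**
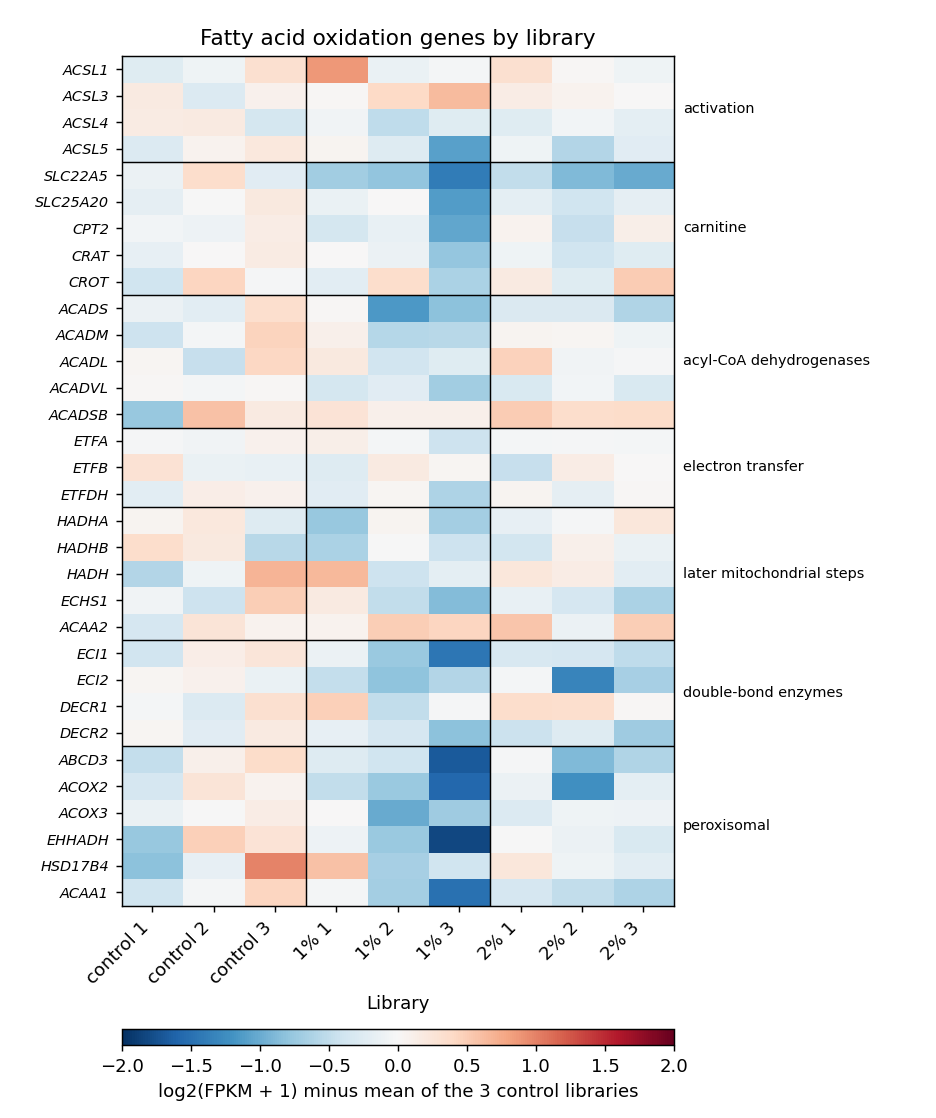
Each cell is the log2(FPKM + 1) of 1 gene (rows, grouped by role) in 1 library (columns) minus the mean of the 3 control libraries, with blue below and red above that mean. The column of 1% library 3 is blue for 28 of the 32 genes and darkest among the peroxisomal genes, while the electron transfer genes stay pale in most libraries.

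None of the 32 genes passed the test against control at an adjusted p of 0.05 (limma on log2(FPKM + 1), Benjamini-Hochberg adjustment over 11944 genes). Among all tested genes 0.0167% passed at 1%, 0.0502% at 2% and 0.0754% for either dose against control. The smallest adjusted p of a member was 0.239 at 1%, 0.868 at 2% and 0.335 for either dose, each time that of SLC22A5. Both doses were set against the same controls. At an unadjusted p under 0.05, 5 of 32 were lower at 1%, against 12.8% of all tested genes, 2 were lower at 2%, against 4.12%, and 4 were lower with either dose, against 8.82%. No member was higher at that threshold, against 2.11%, 1.06% and 1.41% of all tested genes. The members' share at 1% was thus near the background. The 5 at 1% became 10 without 1% library 1, where 1 member was higher, and 7 without control 1. They became 3 without control 3 or 2% library 3, and 1 without control 2 or 1% library 3. Over all tested genes the 1526 lower at 1% became 2043, 1143, 1461, 1327, 1222 and 754 in the same order, of 11810 to 11900 tested. For either dose the 4 became 9 without 1% library 1, 2 without control 2 or 1% library 3, and 1 without 1% library 2. Over all tested genes the 1053 lower became 1476, 862, 757 and 908 in the same order. Without control 2, 1 member was higher with either dose and 1 at 2%, against 112 and 106 of all tested genes. At 2% the 2 became 1 without control 1, control 3, 1% library 2, 2% library 2 or 2% library 3. They became 5 with 1% library 3 placed at 2% (smallest adjusted p = 0.373, limma). Over all tested genes the 492 lower became 367, 659, 444, 487, 297 and 844 in the same order. Median-ratio scaling left 1 lower in each of these comparisons. Of all 11944 tested genes, 703 were then lower at 1%, 383 at 2% and 570 with either dose. At 1% it also gave 1 member higher, with 981 of all tested genes higher in place of 252. Quantile scaling gave 1 member higher and 4 lower at 1%, with 835 of all tested genes higher and 700 lower. Voom on the recovered reads also gave 0 members past the adjusted threshold, with 5, 2 and 4 lower at the unadjusted one. Over all tested genes 1516, 448 and 1067 were then lower.

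Most members lay below control without passing. At 1% 27 of 32 had a log2 change below 0, against 68.6% of all tested genes, at 2% 22 of 32, against 60.7%, and with either dose 26 of 32, against 67.1%. After median-ratio scaling these counts were 21, 19 and 21. The median log2 change of the members was -0.37 at 1%, -0.14 at 2% and -0.26 with either dose, beside -0.14, -0.05 and -0.10 for all tested genes. Quantile scaling moved the median of all genes at 1% to 0.01 and that of the members to -0.25, and the distance between them from -0.23 to -0.26. At 2% it moved the median of all genes to 0.017 and that of the members to -0.007. The distance there went from -0.081 to -0.023, with 18 members below 0. Without 1% library 3 the distance at 1% was -0.076. A log2 change under -0.5 was found in 10 of 32 members at 1%, against 13.3% of all tested genes, in 4 at 2%, against 5.84%, and in 8 with either dose, against 7.69%. All libraries of a dose lay below all controls for 5 of 32 members at 1%, against 15.6% of all tested genes, and for 4 at 2%, against 8.02%. The 95% intervals of single members reached 0.34 to 0.87 on either side of the log2 change for either dose. They are not adjusted for the 11944 genes tested, so a change larger than its interval need not pass the adjusted threshold. SLC22A5, at -0.88, had an adjusted p of 0.335 (limma).

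**Figure D2:**
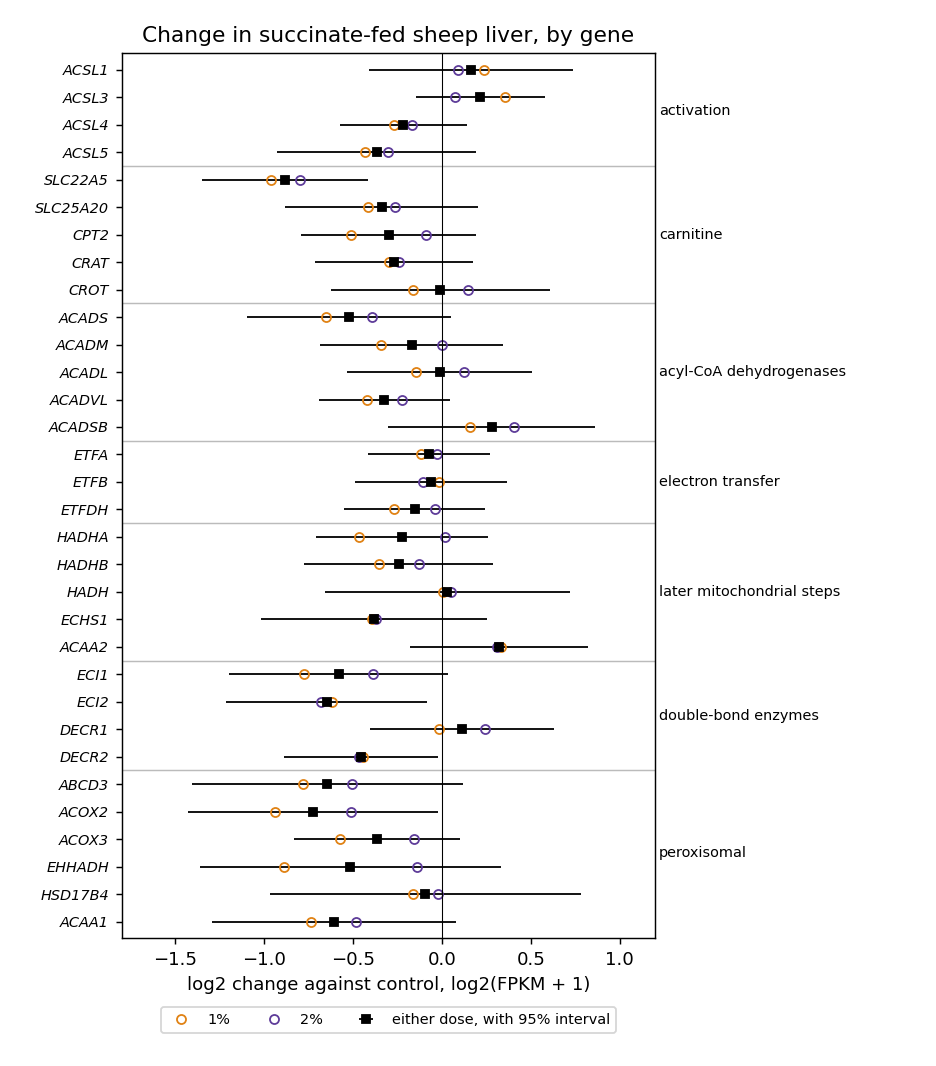
Log2 change against control of each gene on the log2(FPKM + 1) scale, grouped by role. Black squares are the mean of both doses against control with 95% intervals from limma, orange circles the 1% and purple circles the 2% comparison. The intervals of SLC22A5, ECI2, DECR2 and ACOX2 lie below 0, and none of these genes passed after adjustment.

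The acyl-CoA synthetases, which activate fatty acids, lay on both sides of control, with 2 of 4 above and 2 below for either dose. ACSL1, the most abundant of the family in this liver, made up 84.3% to 91.3% of the summed FPKM of the 4 synthetases in every library. It stood at 339.9, 379.7 and 504 FPKM in controls 1 to 3, 738, 368 and 391 in the 1% libraries and 502, 409.7 and 381 in the 2% libraries. The value of 1% library 1 was the highest, and all other libraries lay between 339.9 and 504 FPKM (log2 change 0.16, 95% interval -0.41 to 0.74, adjusted p = 0.827). With 1 library left out it ranged from 0.002 without 1% library 1 to 0.32 without control 3. ACSL3, a synthetase of lipid droplets and the endoplasmic reticulum, was at 5.83, 3.98 and 5.41 FPKM in controls 1 to 3, 5.14, 6.95 and 8.36 in the 1% libraries and 5.67, 5.34 and 5.03 in the 2% libraries. Its highest values were those of 1% libraries 2 and 3, and the groups overlapped (log2 change 0.22, 95% interval -0.15 to 0.58, adjusted p = 0.629). ACSL5, found on mitochondria and the endoplasmic reticulum, was at 48.0, 61.0 and 67.8 FPKM in controls 1 to 3, 60.6, 48.4 and 27.0 in the 1% libraries and 54.6, 38.7 and 49.5 in the 2% libraries. Only 1% library 3 and 2% library 2 lay outside the control range (log2 change -0.37, 95% interval -0.93 to 0.19, adjusted p = 0.598, and a log2 change of -0.20 without 1% library 3). ACSL4, which prefers arachidonic acid, ranged from 3.35 to 6.00 FPKM over the 9 libraries, with a log2 change of -0.22.

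Of the carnitine genes, SLC22A5 had the most negative log2 change with either dose among all 32 members. It encodes the sodium-dependent carnitine transporter of the plasma membrane, which supplies the cell with carnitine. The gene stood at 15.9, 22.5 and 14.7 FPKM in controls 1 to 3, 10.4, 9.66 and 5.98 in the 1% libraries and 12.1, 8.94 and 8.13 in the 2% libraries. Every dosed library lay below every control, a pattern that 3.89% of all tested genes and 2 of the 32 members showed. The log2 change was -0.96 at 1% (95% interval -1.50 to -0.42, adjusted p = 0.239), -0.80 at 2% (95% interval -1.34 to -0.26, adjusted p = 0.868) and -0.88 with either dose (95% interval -1.35 to -0.41, unadjusted p = 0.00193, adjusted p = 0.335, limma). Leaving out 1% library 3 gave a change of -0.77 with either dose.

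The other carnitine genes lay nearer to control. CPT2, the inner-membrane transferase that returns acyl groups from carnitine to CoA, was at 55.2, 53.3 and 63.8 FPKM in controls 1 to 3, 44.6, 51.8 and 27.5 in the 1% libraries and 60.2, 41.5 and 62.2 in the 2% libraries. The 1% libraries were all below the controls, and the 2% libraries straddled the lowest of them (log2 change -0.30, 95% interval -0.79 to 0.19, adjusted p = 0.622, and a log2 change of -0.17 without 1% library 3). SLC25A20, the carrier that exchanges acylcarnitine for carnitine across the inner membrane, ranged from 39.2 to 99.1 FPKM, and CRAT, the acetyltransferase that forms short-chain carnitine esters, from 55.5 to 108. Both were lowest in 1% library 3, with log2 changes of -0.34 and -0.27 for either dose, and of -0.16 and -0.15 without that library. CROT, the peroxisomal octanoyltransferase, was at 197 ± 57.1 FPKM without succinate, 178 ± 62.3 with 1% and 217 ± 55.0 with 2% (SD, n = 3), with a log2 change of -0.01 that turned positive after quantile or median-ratio scaling.

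**Figure D3:**
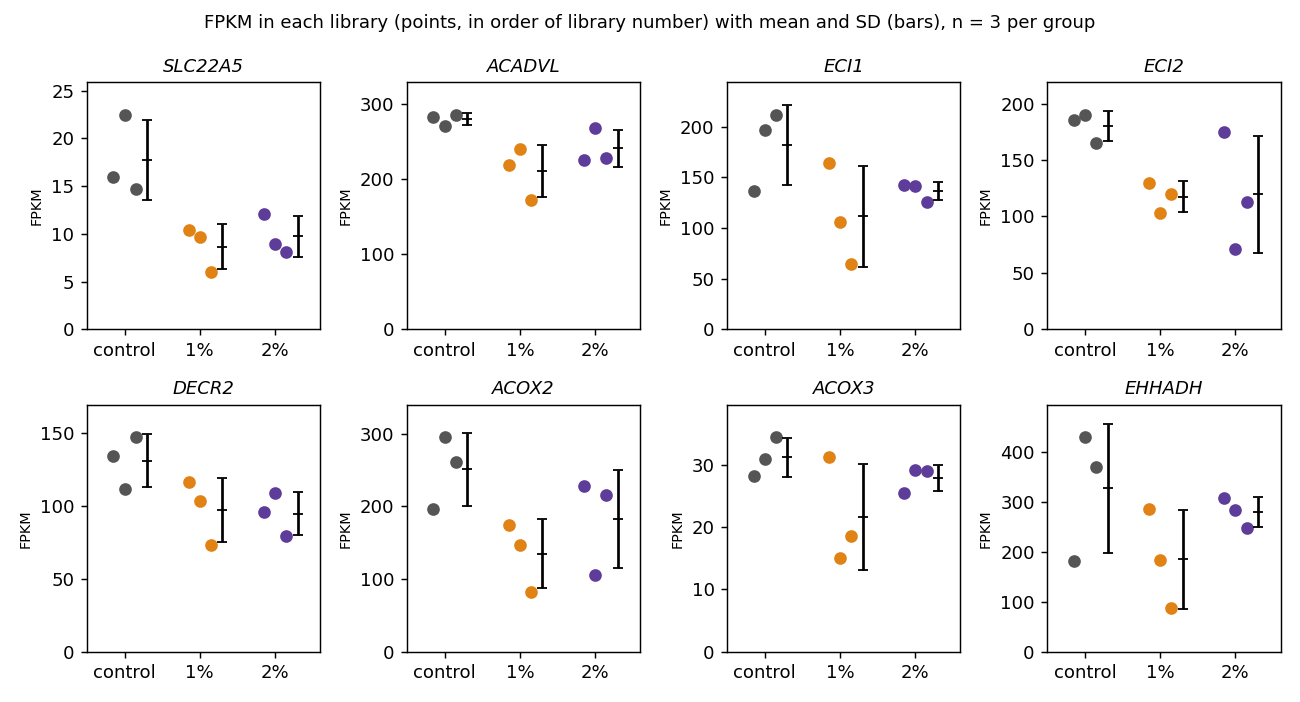
FPKM (vertical axes, from 0) of 8 genes in the 3 libraries of each diet (points, in order of library number) with the mean and SD of each group (bars). All dosed libraries lie below all controls for SLC22A5 and, by a narrow margin, ACADVL, while the groups of the other genes shown overlap in at least 1 of the comparisons.

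The acyl-CoA dehydrogenases differ in the chain lengths they take. ACADVL, the enzyme for very long chains, was at 284, 272 and 287 FPKM in controls 1 to 3, 219, 241 and 173 in the 1% libraries and 226, 269 and 228 in the 2% libraries. The controls were close together and every dosed library was below them, but 2% library 2 lay only just below the lowest control (log2 change -0.32, 95% interval -0.69 to 0.04, adjusted p = 0.515). ACADS, for short chains, was at 94.4, 88.6 and 129.7 FPKM in controls 1 to 3, 105, 45.7 and 57.7 in the 1% libraries and 83.7, 84.2 and 67.6 in the 2% libraries. Its lowest values were in 1% libraries 2 and 3, the 2% libraries were all below the controls, and 1% library 1 was within the control range (log2 change -0.52, 95% interval -1.09 to 0.05, adjusted p = 0.506, and a log2 change of -0.48 without 1% library 3). ACADM, for medium chains, had 201 ± 60.7 FPKM without succinate, 157 ± 44.8 with 1% and 195 ± 10.5 with 2% (SD, n = 3), and ACADL, for long chains, 116 ± 34.7 FPKM without succinate, 103 ± 22.6 with 1% and 125 ± 26.7 with 2%. Their log2 changes for either dose were -0.17 and -0.01, the latter positive after quantile or median-ratio scaling. ACADSB, which acts on the branched chain derived from isoleucine, was at 53.6 FPKM in control 1 and from 98.1 to 138 in the other libraries, so its log2 change of 0.28 rested on that control and was -0.10 without it.

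The electron transfer genes had the smallest median variation of the 7 role classes. ETFA and ETFB encode the subunits of electron transfer flavoprotein, and ETFDH the membrane enzyme that passes their electrons to ubiquinone. ETFA was at 76.6, 73.8 and 83.0 FPKM in controls 1 to 3, 84.4, 75.2 and 57.9 in the 1% libraries and 75.5, 76.8 and 76.0 in the 2% libraries. The coefficient of variation over the 9 libraries was 9.95%, the smallest of the 32 genes, and only 1% library 3 lay apart. Its log2 change of -0.07 (95% interval -0.41 to 0.27, adjusted p = 0.877) turned positive after quantile or median-ratio scaling. ETFDH was at 77.5, 98.2 and 95.0 FPKM in controls 1 to 3, 76.8, 92.1 and 57.9 in the 1% libraries and 93.5, 78.9 and 90.8 in the 2% libraries. Again 1% library 3 was lowest, and the other libraries of all 3 groups shared 1 range (log2 change -0.15, 95% interval -0.55 to 0.25, adjusted p = 0.759, and a log2 change of -0.064 without 1% library 3). ETFB ranged from 41.0 to 69.7 FPKM, with its lowest value in 2% library 1 and a log2 change of -0.06, positive after quantile or median-ratio scaling.

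Later mitochondrial steps held 2 genes above control and 3 below with either dose. HADHA and HADHB encode the subunits of the trifunctional protein, which hydrates, oxidises and cleaves long-chain intermediates. HADHA was at 127, 140.5 and 101 FPKM in controls 1 to 3, 71.5, 126 and 75.5 in the 1% libraries and 109, 119.6 and 143 in the 2% libraries. Low values in 1% libraries 1 and 3 set the mean of that group, while the 2% libraries overlapped the controls (log2 change -0.46 at 1%, 95% interval -1.02 to 0.09, adjusted p = 0.395, and 0.02 at 2%). HADHB was at 134, 121 and 71.4 FPKM in controls 1 to 3, 67.1, 105 and 78.3 in the 1% libraries and 80.8, 113 and 95.9 in the 2% libraries, lowest in control 3 and 1% library 1 (log2 change -0.24, 95% interval -0.77 to 0.29, adjusted p = 0.718, with 1 library left out -0.52 without control 3 to -0.07 without control 1). ACAA2, the thiolase that ends the cycle, was at 338, 509 and 448 FPKM in controls 1 to 3, 449, 598 and 577 in the 1% libraries and 629, 392 and 598 in the 2% libraries. Control 1 was lowest and 4 dosed libraries were above every control, but 1% library 1 and 2% library 2 were not (log2 change 0.32, 95% interval -0.18 to 0.82, adjusted p = 0.607, with 1 library left out 0.16 without control 1 to 0.45 without control 2). ECHS1, the hydratase for short chains, was at 843 ± 276 FPKM without succinate, 651 ± 248 with 1% and 635 ± 105 with 2% (SD, n = 3, log2 change -0.38, 95% interval -1.02 to 0.25, adjusted p = 0.623, with 1 library left out -0.59 without control 2 to -0.14 without control 3). HADH, the dehydrogenase for shorter hydroxyacyl chains, ranged from 46.6 to 113 FPKM and was highest in control 3 and 1% library 1, with group means within 73.9 to 75.5 FPKM.

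Enzymes that move or reduce double bonds, needed for unsaturated fatty acids, had a median log2 change of -0.52 with either dose, beside -0.10 for all tested genes. Of the 4, 3 were below control, against 67.1% of all tested genes, and 3 also after quantile or median-ratio scaling. The median of the 4 was -0.38 without 1% library 3. ECI2, an enoyl-CoA isomerase, was at 186, 190.4 and 165 FPKM in controls 1 to 3, 129.7, 103 and 119.9 in the 1% libraries and 175, 71.2 and 113 in the 2% libraries. The 1% libraries were all below the controls, and 2% library 1 lay within the control range while the other two did not (log2 change -0.65, 95% interval -1.21 to -0.08, adjusted p = 0.459). ECI1, its mitochondrial relative, was at 137, 197 and 212 FPKM in controls 1 to 3, 164, 106 and 64.7 in the 1% libraries and 143, 141 and 126 in the 2% libraries. Values in 1% libraries 2 and 3 were lowest, and the 2% libraries lay close together near control 1 (log2 change -0.58, 95% interval -1.19 to 0.03, adjusted p = 0.495, and a log2 change of -0.41 without 1% library 3). DECR2, the peroxisomal dienoyl-CoA reductase, was at 134, 112 and 147 FPKM in controls 1 to 3, 116, 103 and 73.0 in the 1% libraries and 96.1, 109 and 79.3 in the 2% libraries, with every 2% library below every control (log2 change -0.45, 95% interval -0.89 to -0.02, adjusted p = 0.475). DECR1, the mitochondrial reductase, stood at 105 ± 22.0 FPKM without succinate, 107 ± 35.8 with 1% and 123 ± 15.5 with 2% (SD, n = 3), with a log2 change of 0.11. The summed FPKM of the 4 genes was 558 to 654 in controls, 360.2 to 554 at 1% and 424 to 547 at 2%. All dosed libraries thus lay below all controls, as they did for 3.89% of all tested genes taken singly, but by a narrow margin. The sum was 557.7 in control 1 and 554.4 in 1% library 1, against a control SD of 49.4. None of the 4 genes had all dosed libraries below all controls by itself.

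The peroxisomal genes varied most between libraries, with coefficients of variation of 23.4% to 44.7% and a median of 37.4%, against 15.2% for electron transfer and 24.4% for the later mitochondrial steps. Their median log2 change was -0.76 at 1%, -0.32 at 2% and -0.56 with either dose, beside -0.14, -0.05 and -0.10 for all tested genes. With either dose 6 of 6 lay below control, against 67.1% of all tested genes, and 5 of 6 after quantile or median-ratio scaling. Without 1% library 3, the lowest library for 4 of the 6, the medians were -0.39 at 1% and -0.37 with either dose. ACOX2, the oxidase for branched chains and bile acid side chains, was at 196, 296 and 261 FPKM in controls 1 to 3, 175, 147 and 82.6 in the 1% libraries and 228, 106 and 216 in the 2% libraries. All 1% libraries were below the controls, as was 2% library 2, while 2% libraries 1 and 3 lay within the control range (log2 change -0.94 at 1%, 95% interval -1.75 to -0.13, adjusted p = 0.304, and -0.51 at 2%, adjusted p = 0.95). Without 1% library 3 the log2 change at 1% was -0.62, and with 1 library left out that at 2% ranged from -0.71 without 2% library 1 to -0.16 without 2% library 2. ACOX3, another branched-chain oxidase, was at 28.2, 30.9 and 34.4 FPKM in controls 1 to 3, 31.2, 14.9 and 18.5 in the 1% libraries and 25.4, 29.2 and 29.0 in the 2% libraries. Only 1% libraries 2 and 3 stood well below the controls (log2 change -0.57 at 1%, 95% interval -1.11 to -0.03, adjusted p = 0.323, and a log2 change of -0.50 without 1% library 3).

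EHHADH, the bifunctional enzyme that hydrates and oxidises after the oxidases, was at 182, 429 and 369.5 FPKM in controls 1 to 3, 284, 183 and 86.5 in the 1% libraries and 307, 283 and 248 in the 2% libraries. The highest and lowest values differed 4.96-fold, and control 1 was as low as 1% library 2 (log2 change -0.52, 95% interval -1.36 to 0.33, adjusted p = 0.621, and a log2 change of -0.28 without 1% library 3). ABCD3, the membrane transporter that admits long and branched acyl-CoA, was at 26.9, 40.7 and 49.1 FPKM in controls 1 to 3, 31.4, 28.4 and 11.0 in the 1% libraries and 36.9, 20.0 and 24.7 in the 2% libraries. It too was lowest in 1% library 3, and control 1 lay within the range of the dosed libraries (log2 change -0.64, 95% interval -1.40 to 0.12, adjusted p = 0.518, and a log2 change of -0.42 without 1% library 3). ACAA1, the peroxisomal thiolase, had 319 ± 93.5 FPKM without succinate, 202 ± 97.1 with 1% and 222 ± 21.4 with 2% (SD, n = 3, log2 change -0.61, 95% interval -1.29 to 0.08, adjusted p = 0.513). HSD17B4, the bifunctional enzyme for branched chains and bile acid precursors, had the highest coefficient of variation, 44.7%, at 38.4, 61.0 and 138 FPKM in controls 1 to 3, 103, 43.1 and 52.0 in the 1% libraries and 80.6, 64.7 and 59.3 in the 2% libraries. Control 3 was highest, control 1 lowest, and the log2 change of -0.09 turned positive after quantile or median-ratio scaling. EHHADH, ABCD3 and HSD17B4, like ACSL1, HADHB and DECR2, were chosen for values in every library after these had been seen.

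Many members were low or high in the same libraries. Library 3 at 1% was the lowest of the 9 for 16 of the 32 genes, or 50%, while it was lowest for 27.1% of all tested genes. Control 3 was highest for 15 of 32 members and for 11.7% of all tested genes. Control 1 was highest for 34% of all tested genes but for only 2 members, and it was the lowest library for 5 members and for 1.74% of all tested genes. The median over members of the log2 difference from the control mean was -0.15, -0.008 and 0.17 in controls 1 to 3. It was -0.05, -0.36 and -0.66 in the 1% libraries, and -0.06, -0.12 and -0.19 in the 2% libraries. The members' values at 1% lay from close to control (library 1) to far below (library 3), with 1% library 3 at 3370 summed FPKM against 5292 in 1% library 1 and 4379 to 6026 in controls.

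**Figure D4:**
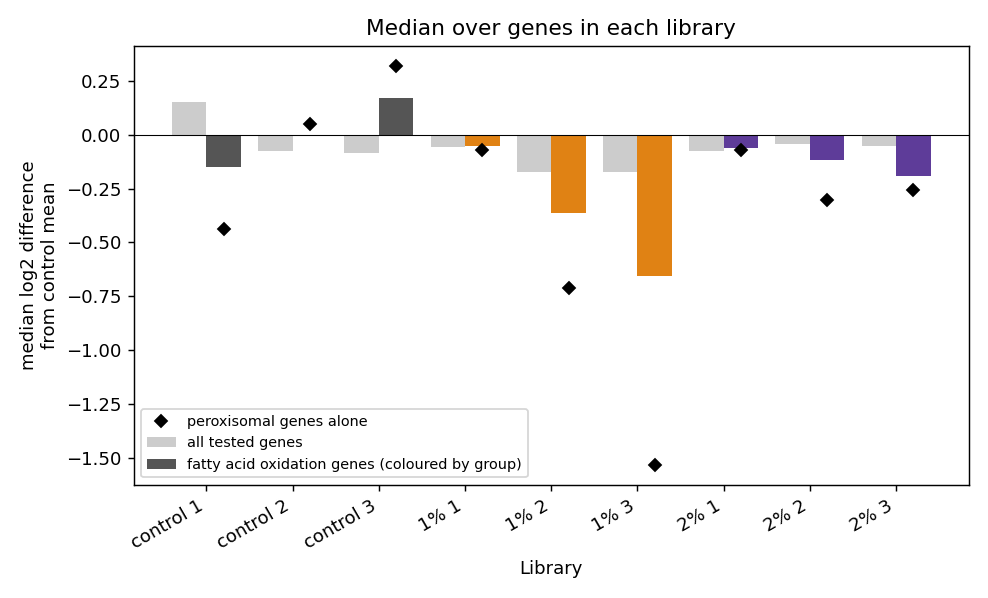
Bars give the median over genes of the log2(FPKM + 1) difference from the control mean in each library, for all tested genes (light grey) and for the 32 fatty acid oxidation genes (dark grey control, orange 1%, purple 2%). Diamonds give the same for the 6 peroxisomal genes, which lie lowest in 1% library 3, next in 1% library 2 and then in control 1.

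Without 1% library 3 the median log2 change of the members at 1% was -0.19 in place of -0.37, with 25 of 32 below 0 and 1 lower at an unadjusted p under 0.05. Without 1% library 1 it was -0.49, with 10 lower at that threshold and a smallest adjusted p of 0.0905, that of ACOX3. Placing 1% library 3 at 2%, as the percentage in its title has it, gave a median of -0.25 at 2% in place of -0.14. With either dose the median was -0.17 without that library. No member passed the adjusted threshold in any of these fits. The summed hepatocyte markers stood at 69006 FPKM in 1% library 3, above every control, but single markers reached up to 43856 FPKM and weigh most in such sums. Their median log2 difference from the control mean was 0.010 in that library, within the -0.13 to 0.20 of the controls. Of the 10 markers, 5 were below control at 1% and 4 with either dose. Markers of T and natural killer cells summed to 20.9 to 31.6 FPKM in controls, 12.1 to 18.4 at 1% and 14.9 to 19.5 at 2%, so no dosed library reached the controls, and 5 of 5 tested lay below control with either dose, also after quantile or median-ratio scaling. Kupffer cell markers (5 of 5 below, 4 of 5 after either scaling) summed to 157 to 336 FPKM in controls, 177 to 231 at 1% and 138 to 231 at 2%. Fibroblast markers (1 of 6 below) summed to 55.0 to 68.4, 57.5 to 68.4 and 48.8 to 186 FPKM in the same order. Endothelial markers (3 of 5 below) gave 73.7 to 108, 85.4 to 96.5 and 69.5 to 107 FPKM, and cholangiocyte markers (2 of 6 below) 11.4 to 45.2, 21.2 to 137 and 15.3 to 39.0. A single cholangiocyte marker reached 129 FPKM in 1% library 2, and 4 of the 6 were below control at 1%. The median log2 difference of the 6 from the control mean was 0.11, -0.45 and -0.13 in 1% libraries 1 to 3. Adipocyte markers (1 of 3 below) gave 234 to 417, 282 to 322 and 289 to 401 FPKM, and erythroid markers (HBB tested, below) 2.49 to 27.8, 2.43 to 20.3 and 0.147 to 5.36. None of these markers passed the test, and the part of such cells in the members' values was not tested.

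The doses were then set against each other. None of the 32 members, and 0% of all tested genes, passed for 2% against 1%, and 0 members had an unadjusted p under 0.05, against 7.48% of all tested genes. Voom gave 0 members as well. Without 1% library 1, 4 members were higher at 2% and 1 was lower at that threshold, against 1158 and 221 of all tested genes (smallest adjusted p = 0.277, limma). Without 1% library 2 or 2% library 2, 1 member was higher, against 586 and 869 of all tested genes. With all libraries the median log2 difference of the members was 0.21, with 6 of 32 below 0, against 38.2% of all tested genes. It was 0.04 without 1% library 3 and -0.08 with that library placed at 2%. EHHADH differed most with all libraries, by 0.75 (95% interval -0.23 to 1.73, adjusted p = 0.721). Without 1% library 3 its difference was 0.28, below those of HADHA, 0.37, and ACOX3, 0.35. For SLC22A5 the difference was 0.16 (95% interval -0.37 to 0.70), an interval that spans both signs. In the trend with dose, log2 changes per 1% succinate ranged from -0.40 for SLC22A5 to 0.20 for ACADSB, and no member passed (smallest adjusted p = 0.998, limma). At an unadjusted p under 0.05 there were 2, against 4.23% of all tested genes, and 0.0251% of all tested genes passed. Both of these members were lower with dose. Lower members numbered 0 without control 1 or 2% library 3, and 1 without control 3 or 1% library 1. They numbered 3 without 1% library 3, and 5 with that library placed at 2%. Over all tested genes the 399 lower became 203, 302, 417, 350, 559 and 863 in the same order, of 11810 to 11944 tested. Without control 2, 0 members were lower and 1 was higher, against 308 and 87 of all tested genes.

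Members whose products work together were compared across the 9 libraries, for 4 pairs, on log2(FPKM + 1). No other pairs of members were set beside them, although many members were low or high in the same libraries. HADHA and HADHB, which lie next to each other in the sheep reference annotation and encode partner subunits, varied together (Pearson r = 0.78, exact permutation p = 0.0124, adjusted over the 4 pairs 0.0165, and Spearman rho = 0.783, exact p = 0.0172, adjusted 0.0344). Their r was 0.757 after the group means were removed. It was 0.689 without the 2 libraries farthest from the median of the first-named gene, a rule used for each pair. The peroxisomal EHHADH and ACAA1 gave r = 0.886 (exact permutation p = 0.00281, adjusted 0.0112) and rho = 0.817 (exact p = 0.0108, adjusted 0.0344). Within groups r was 0.907, and without the 2 farthest libraries 0.765. SLC25A20 and CPT2 had r = 0.878 (exact permutation p = 0.00971, adjusted 0.0165) and r = 0.90 within groups, but rho = 0.517 (exact p = 0.162, adjusted 0.216). Without 1% library 3 and control 3 their r was 0.323, so the relation rested on those libraries. ETFA and ETFB, the subunits of 1 flavoprotein, showed no joint variation past the threshold (r = -0.225, exact permutation p = 0.574, adjusted 0.574, rho = -0.217, exact p = 0.581, adjusted 0.581). Their r was -0.235 within groups and -0.056 without the 2 farthest libraries.

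Other genes of the pathway, from 9 lists that hold 93 genes, were followed in the same fit. Of the 81 tested, 0 passed in any comparison, and at an unadjusted p under 0.05 20 were lower, against 8.82% of all tested genes, and 1 higher, against 1.41%, with either dose. On that comparison 69 were below control, against 67.1%, and 12 above, 60 below after median-ratio scaling, and list medians ran from -0.57 to -0.27. CPT1A, the outer-membrane transferase that admits fatty acids to mitochondria, was at 80.9 ± 13.3 FPKM without succinate, 78.7 ± 14.4 with 1% and 71.7 ± 7.90 with 2% (SD, n = 3, log2 change -0.10, 95% interval -0.50 to 0.29, adjusted p = 0.843), and CPT1B, its muscle-type relative, had a log2 change of -0.64 (adjusted p = 0.396). ACACB, whose product malonyl-CoA inhibits that step, had -1.17. The receptor PPARA, which drives many of these genes in rodent liver, was at 19.4 ± 4.31 FPKM without succinate, 14.6 ± 3.14 with 1% and 14.7 ± 2.68 with 2% (SD, n = 3, log2 change -0.38, 95% interval -0.80 to 0.05, adjusted p = 0.513). Its coactivator PPARGC1A stood at 4.94, 4.53 and 3.35 FPKM in controls 1 to 3, 3.05, 1.68 and 0.673 in the 1% libraries and 3.19, 2.62 and 2.59 in the 2% libraries (log2 change -0.73, 95% interval -1.27 to -0.18, adjusted p = 0.418). Every dosed library was below every control, a pattern that 3.89% of all tested genes showed. Of the 10 regulators tested, PPARA and PPARGC1A among them, 3 lay above control and 7 below with either dose. At an unadjusted p under 0.05 (limma) 1 of the 10 was higher and 2 were lower, against 1.41% and 8.82% of all tested genes. Among ETF-linked dehydrogenases SARDH, of sarcosine breakdown, had a log2 change of -0.73 (adjusted p = 0.335) and GCDH, of lysine breakdown, one of -0.48. For lipid droplets the values were -1.10 for PLIN5, a coat protein that links droplets to mitochondria, and -0.99 for the lipase inhibitor G0S2. The peroxisomal membrane protein ACBD5 had -0.92 and the fatty acid transporter SLC27A1 -0.54. In peroxisome biogenesis 15 of 16 genes were below control, 13 after quantile and 14 after median-ratio scaling, with PEX16 at -0.48 and PEX3 at -0.68. Further log2 changes were -0.39 for ACAT1 of ketone body formation, -0.55 for ACOT8 and -0.53 for ACOT12 among thioesterases, -0.51 for the kinase subunit PRKAA2, and -0.49 for AGXT and -0.70 for NUDT7 in the peroxisome.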

How the data were processed

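Liver RNA of 9 libraries, 3 per diet, was analysed from 1 table of FPKM values deposited by the authors, 1 column per library per the file headers. No aligner, counter, strand setting or annotation is named (not given in the sources used here), so genes with near-identical copies or overlapping neighbours are uncertain. Builds named in the submitters' processing notes are GRCm38 and mm10, both of mouse, while 20169 of 21257 gene names, all 32 members among them, matched the sheep RefSeq table (assembly ARS-UI_Ramb_v3.0), used for names and neighbours only. Groups follow the treatment label. Members and lists were chosen with earlier results of these data known.

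Reads were recovered from the FPKM values, since those of all 17402 genes detected in 2 or more libraries came out as whole reads (tolerance 0.01 of a read). The value of a single read times the library total then agreed across libraries to 0.011%. Read counts of any library pair differed by more than sampling noise, with a chi-square per degree of freedom of at least 35.3. The test was limma (version 3.58.1, R 4.3.3) of log2(FPKM + 1), which understates changes of low genes, with all 9 libraries in 1 fit, empirical Bayes moderation with trend, two-sided p and Benjamini-Hochberg adjustment over 11944 genes. It was also run on simulated data, with the same set variation for every gene and no shifts shared by genes of a library. That run cannot show how the test behaves on libraries like these. Comparisons that share the controls are not independent. Members were named by a rule, the 2 with the smallest p in each of 7 role classes, and further genes were the 2 with the smallest p per list with CPT1A, PPARA and PPARGC1A, and 2 genes that this rule named are not reported here. Values in every library of 6 further members were added after these had been seen. Alternatives covered the pseudocount, filter, scaling, voom on recovered reads, groups in the fit, trend, the conflicting label, a replicate block and each library left out. Tables and plots were made with pandas 2.3.3 and matplotlib 3.10.9 under Python 3.11.15, and exact permutation tests (two-sided) enumerated all orders of 9 libraries.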

Additional observations from a re-analysis of the deposited data

How the results depend on the processing

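Over 20 alternative settings 0 of the 32 members passed in any comparison, and the smallest adjusted p of a member was 0.0905 (ACOX3 at 1%, without 1% library 1). The count of all genes that passed varied. At 1% (2 genes) it was 0 with a pseudocount of 0.1, without a filter, with a mean FPKM of at least 5, after quantile or median-ratio scaling, with voom, with only the groups compared, with 1% library 3 placed at 2% and with the replicate block, and 0 to 4 with 1 library left out. At 2% (6 genes) it was 3 without a filter and with voom, 1 with the mean filter of 5, with 1% library 3 placed at 2% and with the replicate block, 0 with only the groups compared, and 0 to 7 with 1 library left out. For either dose (9 genes) it was 14 with a pseudocount of 5, 5 after quantile scaling, 4 with the mean filter, 3 with a pseudocount of 0.1 and after median-ratio scaling, 1 without a filter, with 1% library 3 placed at 2% and with the replicate block, and 0 to 11 with 1 library left out. For the trend (3 genes) it was 1 with the mean filter, 0 with 1% library 3 placed at 2% and with the replicate block, and 0 to 5 with 1 library left out. Between the doses (0 genes; 894 at an unadjusted p under 0.05) it was 0 to 1 with 1 library left out. Members lower at 2% than at 1% numbered 6, and 10 after median-ratio scaling, which moved the median of all genes from 0.071 to -0.025. The members lower at 2% numbered 21 with 1% library 3 placed at 2%, and 3 to 14 with 1 library left out. The members' median, 0.21, was -0.083 with 1% library 3 placed at 2%, and -0.12 less that of all genes. The cause of these shifts was not tested.

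Of 60 log2 changes recomputed for single members, 15 changed sign under some setting, none of them past the threshold. With 1 library left out, 24 of the 32 changes for either dose moved by over 1.5 times or changed sign. After quantile and median-ratio scaling, log2 changes for either dose were 0.13 and 0.11 for CROT, 0.12 and 0.11 for ACADL, 0.026 and 0.048 for ETFA, 0.037 and 0.060 for ETFB, and 0.033 and 0.028 for HSD17B4. At 2% they were 0.070 and 0.027 for ETFDH, 0.080 and 0.034 for ETFA, and 0.023 for CPT2 after quantile scaling. ETFA at 1% was 0.063 after median-ratio scaling and 0.036 with 1% library 3 placed at 2%. That placement gave -0.16 for HADHA at 2% and 0.012 for CROT with either dose. With 1 library left out, the ranges at 2% were -0.062 to 0.17 for ACSL3, -0.19 to 0.095 for CPT2, -0.14 to 0.037 for ETFDH, -0.066 to 0.018 for ETFA and -0.12 to 0.12 for HADHA, and ETFA at 1% ranged from -0.23 to 0.036. For either dose they were -0.13 to 0.00328 for ETFA, -0.21 to 0.20 for CROT, -0.37 to 0.055 for ACADM, -0.24 to 0.20 for ACADL, -0.10 to 0.57 for ACADSB, -0.14 to 0.087 for ETFB, -0.26 to 0.37 for HADH, -0.023 to 0.27 for DECR1 and -0.50 to 0.40 for HSD17B4.

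Library titles share the numbers 1 to 3 across diets. Deviations from the group means of same-numbered libraries correlated at -0.30 to 0.28, so the numbers were not treated as pairs. With the replicate block 0 members passed, 2 were lower at an unadjusted p under 0.05 at 1% (5 without it) and 2 with either dose (4 without it), and the smallest adjusted p at 1% was 0.287. Over all tested genes 1352 were then lower at 1% (1526 without it) and 961 with either dose (1053 without it).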
